A study of Mus musculus with 6 samples.

Results

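A set of 10 genes of the stress hormone system was followed in poly(A) RNA from the ventral hippocampus of mice. They comprise the glucocorticoid receptor Nr3c1, the mineralocorticoid receptor Nr3c2, 5 genes that glucocorticoids are known to induce (Fkbp5, Sgk1, Tsc22d3, Klf9 and Sult1a1), the steroid-activating enzyme Hsd11b1, the corticotropin-releasing hormone (CRH) receptor Crhr1 and the CRH-binding protein Crhbp. The members were taken by symbol, and all 10 were found among the 56941 genes of the count table and passed the filter on low counts. The groups were 3 mice labelled NEGR1_overexpression and 3 labelled NEGR1_control. NEGR1 is a neuronal adhesion molecule of the IgLON family, and the study concerns its overexpression, working memory and anxiety- or depression-like behaviour. The sources used here give neither the means of overexpression nor what the control mice carried, nor the strain, age or treatment of the mice.

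Corticosterone, the main glucocorticoid of mice, enters neurons and glia and binds both receptors, which are released from chaperones, move to the nucleus and act on glucocorticoid response elements in DNA. The mineralocorticoid receptor has the higher affinity and is abundant in the hippocampus, where it is occupied at low hormone levels, while the glucocorticoid receptor fills as hormone rises with stress or time of day. CRH is the peptide that starts the hormonal stress response in the hypothalamus, and within the hippocampus it is made by some interneurons and acts locally through CRHR1.

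Promoter windows of Sgk1, Tsc22d3 and Sult1a1 are shown first, since of the 10 genes these 3 differed most between the highest and the lowest library (1.71-, 1.97- and 1.65-fold). Windows of 300 bases, 250 before to 50 after a start site, came from RefSeq (GRCm38.p6), which held 16 windows for 9 of the 10 genes. They were searched on both strands for the palindromic response element, GNACA and TGTNC separated by any 3 bases, and for the core hexamer TGTTCT, which can lie inside the full element. The full element stood in 1 of the 16 windows, against 0.475% of all 32851 windows, and the hexamer in 5 of the 16, against 19% of all windows. Those 5 belonged to Sgk1, Tsc22d3 and Sult1a1 only, with more than 1 of them from alternative start sites of Sgk1. Nr3c1 had no window, and the windows of the remaining genes held no match. In the 3 windows below, lower case is the plain sequence and capitals mark every match, written 5′ to 3′ on the strand of the gene. The Sgk1 window (chr10:21993640-21993939, plus strand) is the 1 with the full element, at bases 63 to 75, with 3 hexamers of which 2 overlap it. The Tsc22d3 window (chrX:140600473-140600772, minus strand) holds 1 hexamer at bases 66 to 71, and the Sult1a1 window (chr7:126676369-126676668, minus strand) holds 2. A match is a description of letters only, and whether matches go with the spread between libraries was not tested.
Sgk1: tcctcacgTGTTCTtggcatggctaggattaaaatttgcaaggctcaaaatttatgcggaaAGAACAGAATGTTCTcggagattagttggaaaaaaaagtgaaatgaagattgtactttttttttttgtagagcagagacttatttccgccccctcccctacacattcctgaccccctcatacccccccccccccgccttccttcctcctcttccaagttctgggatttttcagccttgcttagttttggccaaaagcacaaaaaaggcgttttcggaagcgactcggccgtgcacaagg
Tsc22d3: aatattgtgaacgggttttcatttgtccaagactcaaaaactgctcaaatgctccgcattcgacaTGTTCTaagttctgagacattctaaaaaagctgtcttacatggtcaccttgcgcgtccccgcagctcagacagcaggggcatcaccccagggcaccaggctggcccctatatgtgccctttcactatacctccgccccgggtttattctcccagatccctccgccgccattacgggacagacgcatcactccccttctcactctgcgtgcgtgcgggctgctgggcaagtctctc
Sult1a1: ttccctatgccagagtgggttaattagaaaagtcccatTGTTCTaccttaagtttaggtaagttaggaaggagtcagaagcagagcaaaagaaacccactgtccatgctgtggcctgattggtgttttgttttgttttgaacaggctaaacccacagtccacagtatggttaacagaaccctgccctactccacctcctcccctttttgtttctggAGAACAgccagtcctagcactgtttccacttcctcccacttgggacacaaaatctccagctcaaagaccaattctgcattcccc

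The 6 libraries held 30726110 to 38108394 counts. Values below are normalised read counts in CPM after TMM scaling, fold changes are overexpression over control, and tests are edgeR's quasi-likelihood test adjusted over all 19354 genes tested. Negr1 itself had 185, 199 and 195 CPM in the overexpression libraries, all above the 181, 168 and 180 CPM of the control libraries. Of all genes tested, 7.07% were higher in this way. Its fold was 1.09 (95% interval 1.01 to 1.185), and it did not pass (log2 fold change 0.13 ± 0.054 SE, edgeR unadjusted p = 0.0309, adjusted p = 0.488). The groups are therefore named here by their labels. Neuronal markers were abundant (Camk2a at 3877 to 4403 CPM), and all 9 dentate granule cell, 7 CA1, 7 CA2 and 7 CA3 markers were detected. Overexpression replicate 1 carried a large amount of choroid plexus RNA (Ttr at 639.9 CPM, against 3.08 to 38.3 CPM in the other libraries). In bulk tissue, fewer cells of a type and less RNA per cell cannot be told apart.

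None of the 10 genes passed an adjusted p of 0.05 in edgeR, where 0.0465% of all genes tested passed, and 0 passed in DESeq2 or in limma-voom. At an unadjusted p under 0.05 there were 3, Sult1a1, Crhr1 and Crhbp, against 9.24% of all genes. The overexpression and control libraries did not overlap for 3 genes, Klf9 with the overexpression libraries above, and Crhr1 and Crhbp with them below, against 15.1% of all genes tested (7.07% above and 8.07% below). A total of 6 of the 10 lay above a fold of 1 and 4 below it. Their median log2 fold change was 0.047, beside 0.0015 over all genes tested.

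**Figure D1:**
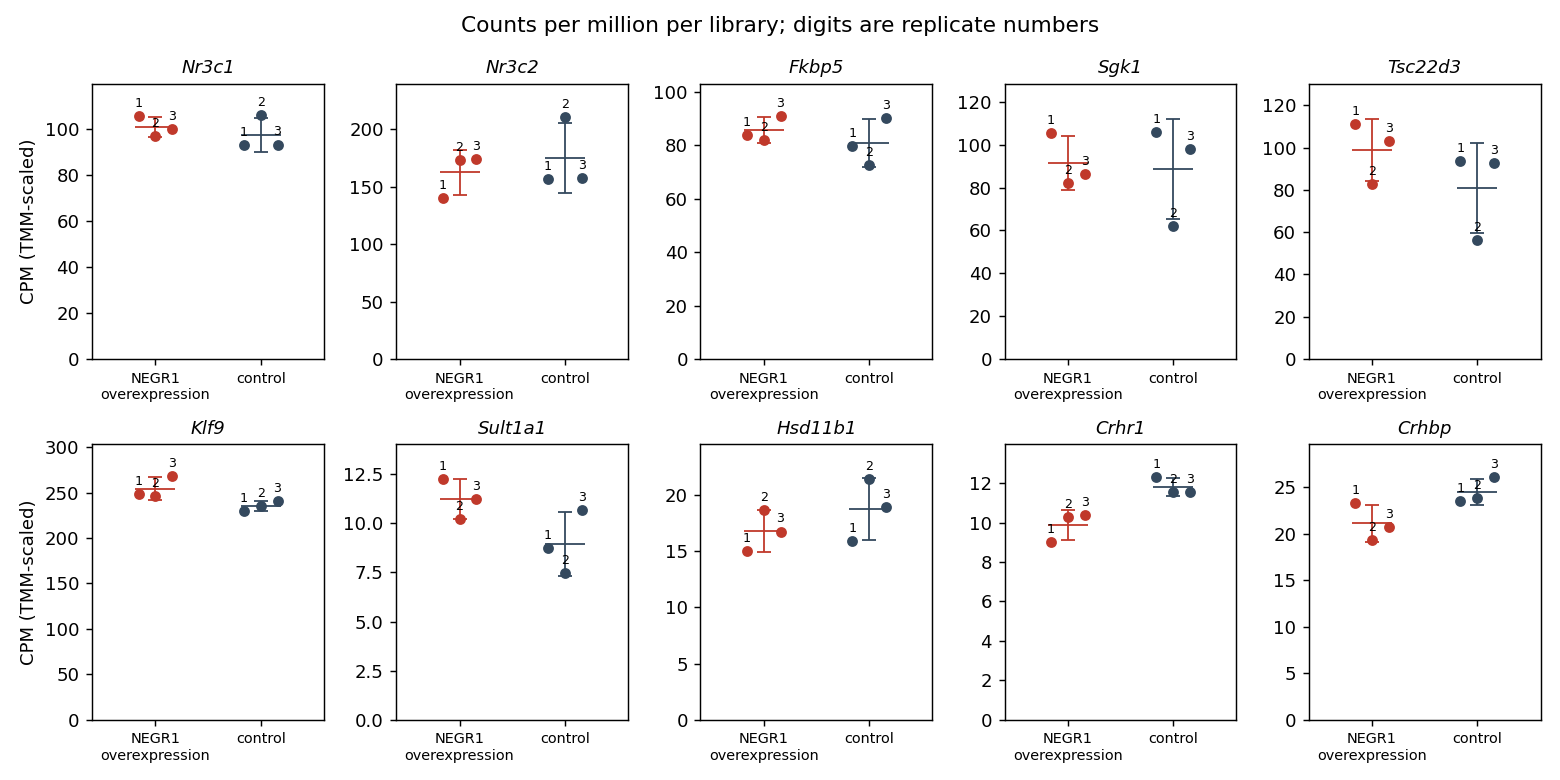
Normalised read counts in CPM (y axis, from 0) of the 10 genes in each library; points are libraries with their replicate numbers, and bars are the mean ± SD of 3. Control replicate 2 lies far below the other libraries for Sgk1 and Tsc22d3 (61.9 and 56.4 CPM) and above them for Nr3c2 (211 CPM).

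No difference between the groups was detected for either corticosteroid receptor. Nr3c1 (ENSMUSG00000024431) was at 105, 96.6 and 99.9 CPM in overexpression libraries and at 92.7, 106 and 93.1 CPM in control libraries. Control replicate 2 was the highest of the 6 and the other control libraries were the lowest, so the groups overlapped. The means were 101 ± 4.43 CPM in the overexpression libraries and 97.2 ± 7.49 CPM in the control libraries (SD, n = 3 each), a fold of 1.04 with a 95% interval of 0.941 to 1.14 (edgeR adjusted p = 0.858). Nr3c2 (ENSMUSG00000031618) was at 140, 174 and 174 CPM in overexpression libraries and at 157, 211 and 158 CPM in control libraries. Its highest level was in control replicate 2 and its lowest in overexpression replicate 1, the library with the fewest dentate granule cell transcripts (9 markers summing to 456 CPM there and to 522 to 756 CPM in the other 5), and the part of that difference in the result was not tested. The means were 163 ± 19.6 CPM in the overexpression libraries and 175 ± 30.7 CPM in the control libraries, a fold of 0.928 (95% interval 0.726 to 1.19, edgeR adjusted p = 0.872). Without control replicate 2 the log2 fold change of Nr3c2 was 0.046 in place of -0.11. Nr3c2 shares 247 exon bases with the opposite-strand transcript Gm10649, which had 884 counts in all, and the strand setting used in counting is not stated.

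The balance of the 2 receptors within a library needs no scaling between libraries. There were 1.33, 1.80 and 1.75 Nr3c2 counts per Nr3c1 count in overexpression libraries and 1.70, 1.99 and 1.70 in control libraries. The groups overlapped, with overexpression replicate 1 the lowest of the 6 and control replicate 2 the highest. The mean log2 ratio was 0.69 ± 0.24 in overexpression and 0.84 ± 0.13 in control libraries (SD, n = 3 each), a difference of -0.15, and the two-sided exact permutation test gave p = 0.6, where 3 libraries against 3 cannot go below 0.1. That difference shrank to -0.014 without overexpression replicate 1 and to -0.075 without control replicate 2.

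The receptors' partners, the NR3 steroid receptors, chaperones and coregulators, had no member past the threshold. Of 7 other NR3 receptors, 5 had a fold above 1 and 2 below, and the median log2 fold change was 0.042. The oestrogen receptor Esr1 was at 4.71, 5.06 and 3.75 CPM in overexpression libraries and at 3.92, 3.96 and 2.95 CPM in control libraries (edgeR adjusted p = 0.611), and Esrrb, an orphan receptor, had an adjusted p of 0.766. Of 11 chaperones and co-chaperones of the receptors, 8 were above 1 and 3 below, with a median of 0.046. Ppid, a cyclophilin of the receptor complex, was at 77.1, 82.0 and 87.9 CPM in overexpression libraries, all above the 74.9, 73.8 and 70.4 CPM of control libraries (log2 fold change 0.17 ± 0.061 SE, edgeR adjusted p = 0.423). Ptges3, the co-chaperone p23, had a log2 fold change of 0.15 (edgeR adjusted p = 0.542). Pseudogenes of these chaperones could have taken part of their reads. Of 11 coregulators, 4 were above 1 and 7 below, with a median of -0.032. Smarca4, an ATPase that remodels chromatin, was at 172, 164 and 163 CPM in overexpression libraries and at 181, 177 and 184 CPM in control libraries, with no overlap (log2 fold change -0.12 ± 0.051 SE, edgeR adjusted p = 0.497). Of all genes tested, 7.07% were higher in every overexpression library, like Ppid, and 8.07% were lower, like Smarca4.

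**Figure D2:**
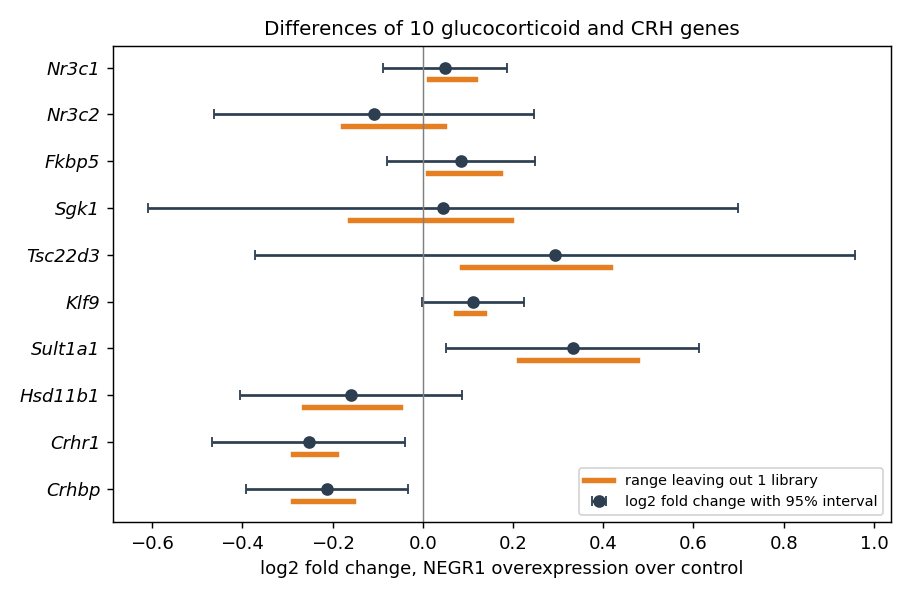
Log2 fold change of overexpression over control (x axis) for the 10 genes (y axis); points with bars are the edgeR estimate and its 95% interval, and the bars beneath are the range when each of the 6 libraries was left out in turn. The intervals of Sgk1 and Tsc22d3 are the widest, and those of Nr3c2 and Sgk1 without 1 library span both signs.

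Among the induced genes, Sgk1 and Tsc22d3 varied most between libraries, and more within the control group than between the groups. Sgk1 (ENSMUSG00000019970), a kinase that regulates ion channels and is a direct target of the glucocorticoid receptor, was at 106, 82.3 and 86.2 CPM in overexpression libraries and at 106, 61.9 and 98.2 CPM in control libraries. The highest and the lowest of the 6 values were both control libraries. The means were 91.4 ± 12.5 CPM in the overexpression libraries and 88.7 ± 23.6 CPM in the control libraries, a fold of 1.03 with a 95% interval of 0.656 to 1.62 (edgeR adjusted p = 0.979). Its direction was not settled by these libraries, with a log2 fold change of 0.045 in all 6, -0.16 without control replicate 2 and -0.073 without overexpression replicate 1. Tsc22d3 (ENSMUSG00000031431), which encodes the anti-inflammatory protein GILZ, was at 111, 82.8 and 103 CPM in overexpression libraries and at 93.5, 56.4 and 92.6 CPM in control libraries. Overexpression replicate 2 lay below 2 control libraries, so the groups overlapped. The means were 98.9 ± 14.5 CPM in the overexpression libraries and 80.8 ± 21.2 CPM in the control libraries, a fold of 1.23 (95% interval 0.773 to 1.94, edgeR adjusted p = 0.780). Without control replicate 2 the log2 fold change of Tsc22d3 was 0.088 in place of 0.29.

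Fkbp5 and Klf9 had folds close to 1. Fkbp5 (ENSMUSG00000024222), the co-chaperone FKBP51 that lowers the receptor's affinity for hormone and is itself induced by it, was at 83.8, 81.9 and 91.0 CPM in overexpression libraries and at 79.5, 72.5 and 90.2 CPM in control libraries. The groups overlapped, and control replicate 2 was again the lowest. Its fold was 1.06 (95% interval 0.947 to 1.19, edgeR adjusted p = 0.772). Klf9 (ENSMUSG00000033863), a zinc-finger transcription factor induced by corticosterone in hippocampal neurons, was at 249, 246 and 269 CPM in overexpression libraries and at 230, 236 and 241 CPM in control libraries. All 3 overexpression libraries lay above all 3 control libraries, and control replicate 2 was in the middle of its group. The means were 255 ± 12.4 CPM in the overexpression libraries and 236 ± 5.63 CPM in the control libraries, a fold of 1.08 with a 95% interval of 0.999 to 1.17 (edgeR adjusted p = 0.543).

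Sult1a1 (ENSMUSG00000030711), a sulfotransferase of phenols and catechol compounds, had the largest fold of the 10. It was at 12.3, 10.2 and 11.3 CPM in overexpression libraries and at 8.75, 7.45 and 10.7 CPM in control libraries. Control replicate 3 lay above overexpression replicate 2, so the groups overlapped. The means were 11.2 ± 1.03 CPM in the overexpression libraries and 8.95 ± 1.61 CPM in the control libraries, a fold of 1.26 (95% interval 1.04 to 1.53, edgeR adjusted p = 0.467), and leaving out a library in turn gave log2 fold changes of 0.21 to 0.47. Choroid plexus markers, 10 of 10 detected, summed to 57.1 to 768 CPM in overexpression libraries and to 33.5 to 59.5 CPM in control libraries, with none at 0. Meningeal fibroblast markers, 10 of 10 detected and none at 0, summed to 174 to 224 CPM in overexpression and 145 to 196 CPM in control libraries, and their part in the Sult1a1 difference was not tested. Sult1a1 shares 61 exon bases with the opposite-strand gene Sgf29, which had 1726 counts. Of the other sulfotransferases, Sult4a1, a brain form, was at 311.5, 309 and 289 CPM in overexpression libraries, below the 327, 335 and 320 CPM of control libraries (log2 fold change -0.11 ± 0.051 SE, edgeR adjusted p = 0.534), and Sult1b1, Sult1d1 and Sult1e1 had 0 counts in every library. Of all genes tested, 8.07% were lower in every overexpression library, like Sult4a1.

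Control replicate 2 stood apart on glucocorticoid-induced genes. Of the 29 other induced genes tested from a list of 30, 21 had their lowest level of the 6 libraries there (72.4%), where 17.2% of all genes tested did. Among the 5 induced genes described above, Fkbp5, Sgk1, Tsc22d3 and Sult1a1 were lowest there and Klf9 was not, while Nr3c1, Nr3c2 and Hsd11b1 were highest there. Plin4, a lipid droplet protein, was at 22.7, 15.8 and 21.9 CPM in overexpression libraries and at 17.4, 5.19 and 24.8 CPM in control libraries. Hif3a, a hypoxia-inducible factor subunit, was at 22.6, 21.7 and 17.6 CPM in overexpression libraries and at 19.1, 8.75 and 24.7 CPM in control libraries. Lcn2, an iron-carrier-binding protein, had 180, 37 and 213 counts in overexpression libraries and 165, 2 and 117 counts in control libraries. In each of the 3 the lowest library was control replicate 2, and they were picked after their values were seen, for their distance in that library.

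**Figure D3:**
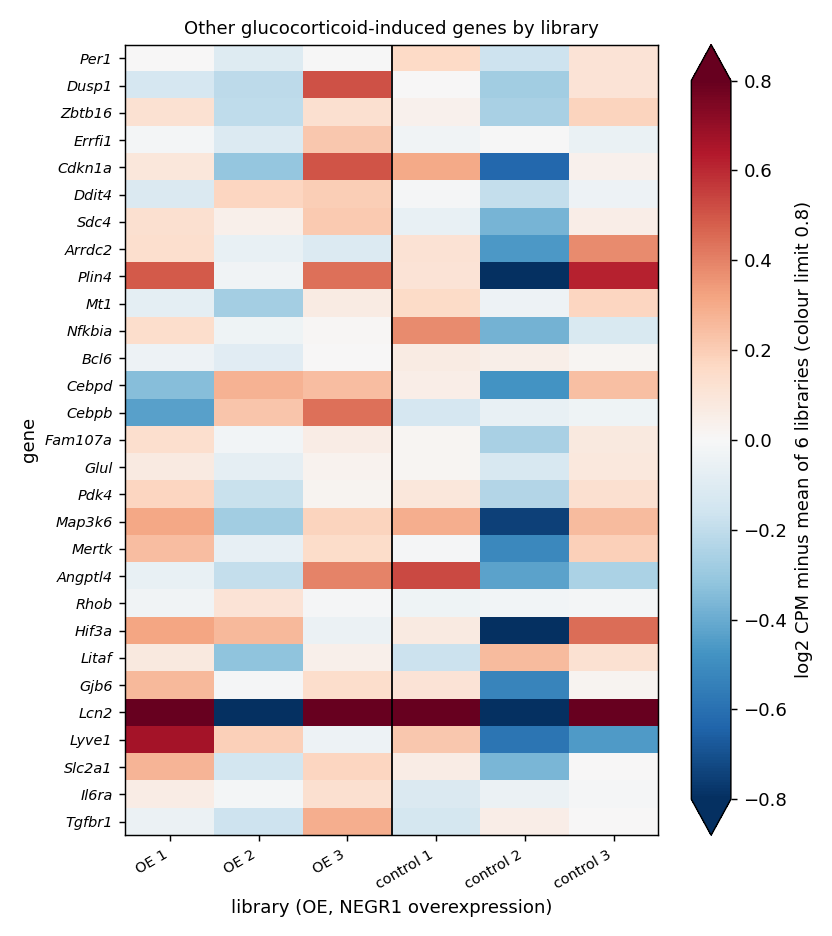
Log2 CPM minus the mean of the 6 libraries (colour, which stops at 0.8 in either direction) for the 29 other glucocorticoid-induced genes (rows) in each library (columns, overexpression left of the line). The column of control replicate 2 is mostly blue, and 21 of its 29 cells are the lowest of their row.

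Astrocytes and endothelial cells express many of these genes, and the summed markers of both lay within the range of the other libraries in control replicate 2. The 10 astrocyte markers summed to 6408 to 7064 CPM in overexpression libraries, 6851 CPM in control replicate 2 and 6488 and 7167 CPM in the other control libraries. The 10 endothelial markers summed to 285 to 297 CPM in overexpression libraries, 279.8 CPM in control replicate 2 and 303 and 260.2 CPM in the other control libraries. Most of the astrocyte sum is Slc1a2 (4226 CPM in that library). In that library 2 of the 10 astrocyte markers, Gjb6 and Fgfr3, and 2 of the 10 endothelial markers, Pecam1 and Ly6c1, were the lowest of the 6. Gjb6 is also on the list of other induced genes counted above, so it is not a separate measure of astrocytes here. It was at 70.8, 58.6 and 65.2 CPM in overexpression libraries and at 63.7, 40.9 and 59.97 CPM in control libraries. The oligodendrocyte markers of control replicate 2 were the highest of the 6, with sums of 3077 to 3631 CPM in overexpression libraries, 4856 CPM in that library and 3853 and 4680 CPM in the other control libraries. Its neuronal markers were also the highest, with sums of 10740 to 11230 CPM in overexpression libraries, 12280 CPM in that library and 11300 and 11380 CPM in the other control libraries. Its meningeal fibroblast markers had the lowest sum of the 6, with 174 to 224 CPM in overexpression libraries, 144.8 CPM in that library and 196 and 167 CPM in the other control libraries. The part of any of these cell types in its low induced genes was not tested.

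Over the whole list the direction between groups changed without that library. In all 6 libraries 24 of the 29 induced genes had a fold above 1 and 5 below, and the median log2 fold change was 0.11, against 50.4% above and a median of 0.0015 over all genes tested. Without control replicate 2, a fit added after the data were seen, 13 of 30 were above 1 and 17 below, with a median of -0.042. Without overexpression replicate 3, 18 of 30 were above 1 and 12 below, with a median of 0.025, and without any 1 of the other 4 libraries the median was 0.11 to 0.18. In each of these fits 0 passed an adjusted p of 0.05, and 1 to 3 had an unadjusted p under 0.05. The 2 induced genes with the smallest p were Sdc4, a syndecan, at 98.4, 92.6 and 104 CPM in overexpression libraries and 86.6, 69.7 and 93.5 CPM in control libraries (edgeR adjusted p = 0.494), and the metallothionein Mt1, at 92.5, 80.9 and 102 CPM in overexpression libraries and 109, 94.8 and 109.8 CPM in control libraries (edgeR adjusted p = 0.540). Both had groups that overlapped. The clock gene Per1, which has response elements of its own, was at 84.0, 77.9 and 83.4 CPM in overexpression libraries and at 93.4, 74.5 and 90.4 CPM in control libraries (edgeR adjusted p = 0.813). Of 10 immediate early genes, which neuronal activity induces, 9 were below 1, led by Egr1 at 79.4, 67.0 and 96.7 CPM in overexpression libraries and 101, 121 and 105 CPM in control libraries (edgeR adjusted p = 0.456), and Egr4 had a log2 fold change of -0.31 (edgeR adjusted p = 0.460). The groups did not overlap for these 2 genes, where 8.07% of all genes tested were lower in this way. Over the whole list, however, overexpression replicate 3 stood apart, as the highest of the 6 libraries for 8 of the 10. Summed over the 10 the levels were 244, 247 and 404 CPM in overexpression libraries and 346, 356 and 356 CPM in control libraries, so 2 of the 3 overexpression libraries lay below the controls and the other above.

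Some members moved together or in opposition across the 6 libraries. These values are descriptions of 6 points that share their depth, scaling and dissection, taken from 45 pairs of members. Sgk1 and Nr3c2 ran opposite, with Pearson's r = -0.96 and Spearman's rho = -0.89 over 6 libraries, and r = -0.95 without the pair of libraries farthest from the median of Nr3c2. Sgk1 and Tsc22d3 ran together, with r = 0.89 and rho = 0.71, and r = 0.67 without the pair farthest on Sgk1. Without control replicate 2 the Sgk1 and Nr3c2 value was -0.87 and the Sgk1 and Tsc22d3 value 0.50. Nr3c2 and Tsc22d3 had r = -0.89 and rho = -0.66, with r = -0.61 without control replicate 2 and r = -0.025 without the 2 libraries farthest on Nr3c2, control replicate 2 and overexpression replicate 1, so that relation rested on those 2 together.

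**Figure D4:**
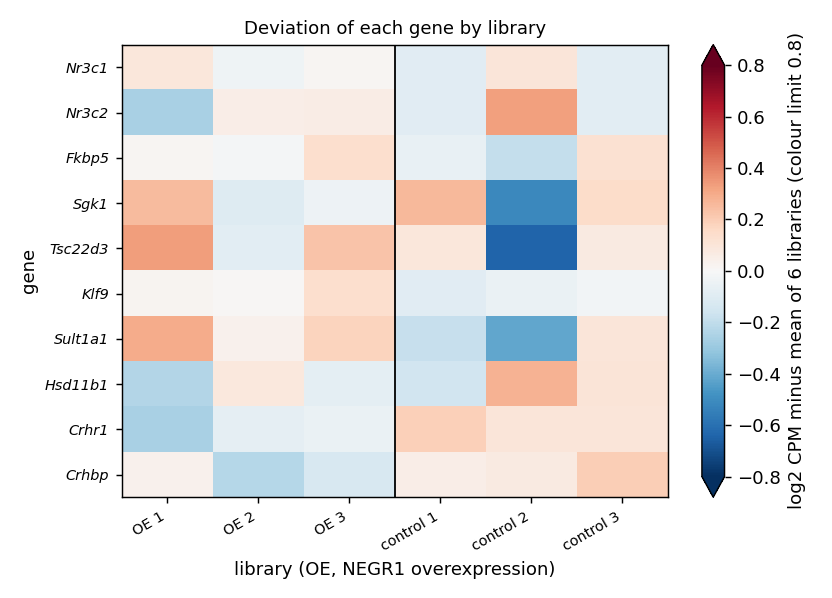
Log2 CPM minus the mean of the 6 libraries (colour, with limits at 0.8 in either direction) for the 10 genes (rows) in each library (columns, overexpression left of the line). Sgk1, Tsc22d3 and Sult1a1 are low and Nr3c2 and Hsd11b1 high in control replicate 2, while overexpression replicate 1 shows the opposite in each of these 5.

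Hsd11b1 (ENSMUSG00000016194) encodes 11β-hydroxysteroid dehydrogenase type 1, which regenerates active corticosterone inside cells. It was at 15.0, 18.7 and 16.7 CPM in overexpression libraries and at 15.9, 21.4 and 18.9 CPM in control libraries. The lowest was overexpression replicate 1 and the highest control replicate 2, and the groups overlapped. The means were 16.8 ± 1.86 CPM in the overexpression libraries and 18.7 ± 2.79 CPM in the control libraries, a fold of 0.895 (95% interval 0.755 to 1.06, edgeR adjusted p = 0.704), with a log2 fold change of -0.051 without control replicate 2. Of 13 other genes of corticosteroid metabolism and transport 10 were tested, 7 above a fold of 1 and 3 below it, with a median of 0.022 on the log2 scale and 0 past the threshold. Cyp11a1, which makes pregnenolone from cholesterol, was at 3.49, 3.28 and 3.80 CPM in overexpression libraries and at 2.77, 3.35 and 2.98 CPM in control libraries (edgeR adjusted p = 0.727), and Cyp7b1, a neurosteroid hydroxylase, had an adjusted p of 0.881. Hsd11b2, the enzyme that inactivates corticosterone, had 3, 7 and 3 counts in overexpression libraries and 8, 5 and 7 in control libraries, too few to be tested.

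Crhr1 and Crhbp were lower in every overexpression library than in any control library, by amounts that did not pass adjustment. Of all genes tested, 8.07% were lower in this way. Crhr1 (ENSMUSG00000018634), the receptor through which CRH acts on hippocampal neurons, was at 9.01, 10.3 and 10.4 CPM in overexpression libraries and at 12.3, 11.5 and 11.5 CPM in control libraries. The means were 9.89 ± 0.768 CPM in the overexpression libraries and 11.8 ± 0.439 CPM in the control libraries, a fold of 0.839 (95% interval 0.723 to 0.973), with an unadjusted p of 0.0237 and an adjusted p of 0.467 in edgeR's test. Crhbp (ENSMUSG00000021680), the secreted protein that binds CRH and limits its access to the receptor, was at 23.3, 19.4 and 20.7 CPM in overexpression libraries and at 23.6, 23.8 and 26.1 CPM in control libraries. The gap between the groups was narrow, from 23.3 CPM in overexpression replicate 1 to 23.6 CPM in control replicate 1. The means were 21.1 ± 1.98 CPM in the overexpression libraries and 24.5 ± 1.39 CPM in the control libraries, a fold of 0.863 (95% interval 0.762 to 0.977), with an unadjusted p of 0.0233 and an adjusted p of 0.467 in edgeR's test. Leaving out a library in turn gave log2 fold changes of -0.29 to -0.19 for Crhr1 and -0.29 to -0.15 for Crhbp.

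The ratio of the 2 genes showed no difference between groups beyond the spread of the libraries. There were 2.58, 1.89 and 1.99 Crhbp counts per Crhr1 count in overexpression libraries and 1.91, 2.06 and 2.26 in control libraries. The groups overlapped, with a mean log2 ratio of 1.09 ± 0.24 in overexpression and 1.05 ± 0.12 in control libraries (SD, n = 3 each) and a two-sided exact permutation p of 0.9. The 10 interneuron markers, cells known to make Crhbp, summed to 797 to 900 CPM in overexpression libraries and 839 to 852 CPM in control libraries, and none was at 0. Of these 10 markers 4 had a fold above 1 and 6 below. Gad1, the most abundant of them, was at 311, 297 and 271 CPM in overexpression libraries and at 270.2, 289 and 279 CPM in control libraries. The neuropeptide genes Cck and Npy, picked after their values were seen, were lower in every overexpression library than in any control library, like Crhr1 and Crhbp. They were 2 of the 10 markers, where 8.07% of all genes tested were lower in this way. The largest fold of the 10 was above 1 (Calb2, 1.22). Cck was at 151, 148 and 148 CPM in overexpression libraries and at 163, 167 and 156 CPM in control libraries (fold 0.920, edgeR adjusted p = 0.497). Npy was at 16.1, 14.3 and 15.2 CPM in overexpression libraries and at 16.2, 17.98 and 16.8 CPM in control libraries (fold 0.894, edgeR adjusted p = 0.597). The part of interneuron RNA in the lower Crhr1 and Crhbp was not tested. Oligodendrocyte markers, 10 of 10 with a fold change below 1 and none at 0, summed to 3077 to 3631 CPM in overexpression libraries and 3853 to 4856 CPM in control libraries, and their part in the lower Crhr1 and Crhbp was not tested. Neuronal markers, also 10 of 10 below 1, summed to 10740 to 11230 CPM in overexpression libraries and 11300 to 12280 CPM in control libraries. Their median log2 fold change was -0.074, and their part in the lower Crhr1 and Crhbp was likewise not tested.

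Crh itself was scarce. It was at 1.49, 1.52 and 1.53 CPM in overexpression libraries, all above the 1.09, 0.718 and 1.34 CPM of control libraries, a log2 fold change of 0.54 ± 0.26 SE (edgeR adjusted p = 0.564). Of all genes tested, 7.07% were higher in this way. A list of 14 peptide and receptor genes covered the CRH family and the vasopressin, oxytocin, melanocortin and PACAP systems. Of these 14, 7 had enough counts to be tested, 5 above a fold of 1 and 2 below it. Their median was 0.098 on the log2 scale, and 0 passed the threshold. The most abundant was the PACAP receptor gene Adcyap1r1, at 279, 274.5 and 261 CPM in overexpression libraries and 259, 258 and 274.5 CPM in control libraries (edgeR adjusted p = 0.853). The oxytocin receptor Oxtr was at 13.2, 13.8 and 11.7 CPM in overexpression libraries and 12.8, 11.5 and 11.9 CPM in control libraries (edgeR adjusted p = 0.798). Mc4r, a melanocortin receptor, was at 4.62, 5.09 and 4.77 CPM in overexpression libraries and at 5.89, 4.42 and 7.21 CPM in control libraries (edgeR adjusted p = 0.665), and the second CRH receptor Crhr2 was at 2.45, 1.75 and 1.91 CPM in overexpression libraries and 1.46, 1.78 and 1.94 CPM in control libraries (edgeR adjusted p = 0.777). The urocortin genes Ucn, Ucn2 and Ucn3, whose peptides bind the CRH receptors, had 5, 6 and 2 counts over the 3 overexpression libraries and 2, 8 and 0 over the 3 control libraries.

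Levels can be compared between genes only per length. Per kilobase of exon (GENCODE M21, which may not be the annotation used for counting), Klf9 was the most abundant of the 10, at a mean over the 6 libraries of 50.9 CPM per kilobase (range 47.8 to 55.8), above every other member in every library. Nr3c2 followed at 26.1 (21.6 to 32.5), Tsc22d3 at 20.7 (13.0 to 25.6) and Sgk1 at 18.4 (12.6 to 21.6) CPM per kilobase. Nr3c1 at 12.9 (12.1 to 13.8) and Crhbp at 12.7 (10.8 to 14.5) CPM per kilobase did not differ beyond their ranges. Fkbp5 at 8.78 (7.66 to 9.61) CPM per kilobase lay below all libraries of Crhbp. The lowest were Sult1a1 at 6.70 (4.94 to 8.14), Crhr1 at 4.41 (3.66 to 5.001) and Hsd11b1 at 4.18 (3.52 to 5.04) CPM per kilobase. The range of each overlapped that of its neighbour in that order, although within every library Sult1a1 lay above Crhr1.

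The genes whose level followed Crhbp most closely, among 12008 others with a mean of at least 5 CPM, were Cmtm5, Ccdc77 and Arhgef10, with Pearson's r of 0.997, 0.990 and 0.988 over 6 libraries (Spearman's rho 1.0, 0.943 and 0.943). Cmtm5 was at 26.0, 21.99 and 23.2 CPM in overexpression libraries and at 26.8, 27.1 and 29.8 CPM in control libraries, the same order of libraries as Crhbp. In all, 187 genes had an r above 0.9 with Crhbp. For Fkbp5 the closest were Cep135, Eva1a and Ppwd1, with r of 0.981, 0.978 and 0.976 (rho 1.0, 0.886 and 0.714), among 52 genes above 0.9. These are the highest values of a search among 12008 genes over only 6 libraries. How many genes would exceed 0.9 by chance was not tested, so neither count is evidence of shared regulation.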

How the data were processed

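The authors deposited raw counts per Ensembl gene for 6 libraries, made, per the labels' protocols, from poly(A) mRNA with a strand-specific dUTP kit. The submitters' processing notes list featureCounts 2.0.3, STAR 2.7.10 and Trimmomatic 0.36, and the builds mm10 and GRCm39, without roles; the annotation and strand setting are not stated. Symbols were found for 51948 of 56941 identifiers. The design text speaks of separate mice. Every pair of libraries differed by more than sampling noise (chi-square per degree of freedom 4.29 to 12.9).

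The main test was edgeR 4.0.16's robust quasi-likelihood test (R 4.3.3; TMM; default filter; group as the only term), with Benjamini-Hochberg adjustment over all genes and a threshold of 0.05; it was tested on simulated data. Standard errors came from the F statistic. Alternatives were DESeq2 1.42.0, limma-voom 3.58.1 with sample weights, RLE and upper quartile factors, other filters (none, or 1 CPM in 3 libraries), a replicate block, and leaving out each library. Within-library ratios were tested by exact permutation (scipy 1.17.1).

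The members and lists were chosen with earlier results of these data known, so a list's direction is not independent evidence. Named are all members, Negr1, and from each pathway list the 2 genes of at least 1 CPM with the smallest p, of which 1 is not reported here; genes named beyond these (Plin4, Hif3a, Lcn2, Per1, Hsd11b2, Crhr2, Ucn, Ucn2, Ucn3, Adcyap1r1, Oxtr, the sulfotransferases at 0, and single cell type markers) were added after their values were seen. Likeness used log2 CPM with a prior count of 2.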

Additional observations from a re-analysis of the deposited data

How the results depend on the processing

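Across 13 alternatives for each of the 10 genes, 126 of 130 values kept the direction and none passed the threshold (smallest adjusted p = 0.177, Tsc22d3 under the replicate block). The 4 reversals were Sgk1 with limma-voom (-0.014), without overexpression replicate 1 (-0.073) and without control replicate 2 (-0.16), and Nr3c2 without control replicate 2 (0.046). Over the fits that leave out 1 library Sgk1 ran from -0.16 to 0.20 and Nr3c2 from -0.18 to 0.046. With 1 library left out in turn, the difference in the log2 ratio of Crhbp to Crhr1 ran from -0.097 to 0.13 and was negative without overexpression replicate 1 and, at -0.017, without control replicate 1. Over all genes, 9 passed in edgeR, 108 with DESeq2, 304 with no filter, 5 with the stricter filter and 2 to 63 with 1 library left out; the cause was not tested. The median over the 10 genes was 0.00096 to 0.096 with a library left out, and Negr1 stayed at 0.095 to 0.16. Libraries of equal replicate number had correlations of deviations of 0.017 to 0.023, and each library correlated best with its own number. The labels state no pairing, and correlations this small cannot show whether the mice were paired. The replicate block gave 26 genes, and differences within pairs gave -0.15 for the receptor ratio and 0.041 for Crhbp to Crhr1. With 3 mice a group, the 95% intervals leave changes of either sign for every member but Sult1a1, Crhr1 and Crhbp, and none of those 3 passed adjustment. The intervals are widest for Sgk1 and Tsc22d3.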
